A study of Mus musculus with 10 samples.

Results

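The short hairpin RNA shFox2-2, which targets Rbfox2, was compared gene by gene with 2 control hairpins, shLuc against luciferase and shGFP against green fluorescent protein. Of 26857 entries in the deposited gene table, 12653 were used. They had no failed status in these 3 hairpins and a mean of at least 1 FPKM, a fragment count scaled for transcript length and library size, over them. Rom1 at 1.0006 FPKM was the last entry inside this limit and Camk1d at 0.99998 FPKM the first outside it. The cells were mouse V6.5 embryonic stem (ES) cells on gelatin with LIF, and poly(A)-selected RNA was sequenced in paired ends. All groups carried a lentiviral hairpin, were held for 3 days in puromycin at 1 µg/ml and were harvested 24 h after its removal. The groups were shFox2-2, the second Rbfox2 hairpin shFox2-1, which is given beside it and was never pooled with it, and the controls shLuc and shGFP. Each hairpin was infected in duplicate, but the authors pooled the 2 libraries into 1 FPKM value with a lower and an upper bound. Sequencing depth is therefore unknown, and no replicate spread of a hairpin can be given. Each group is 1 hairpin sequence, so effects of that sequence and of the loss of Rbfox2 cannot be told apart within it.

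Rbfox2 is an RNA-binding protein that recognises the short element UGCAUG in pre-mRNA. Bound downstream of an alternative exon it tends to favour inclusion of that exon, and bound upstream it tends to favour skipping. Some of the isoforms it controls carry premature stop codons and are degraded, so that its activity can change the level of an mRNA as well as its splicing. The values described here are levels of whole genes, and no isoform was measured.

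The hairpins differed in the level of their median gene, which was 7.18 FPKM in shFox2-2 and 8.36 FPKM in shFox2-1, against 7.65 FPKM in shLuc and 8.07 FPKM in shGFP. The median of shFox2-2 was thus 0.13 lower on the log2 scale than the mean of the controls. The main counts of genes are therefore given as deposited and after each hairpin was centred on its median gene. FPKM values are as deposited throughout. Centring did not level every range of expression: the median centred change was 0.06 for genes above 13.8 FPKM, against -0.01 for those between 4.35 and 13.8 FPKM and 0.00 for those below. A gene is called higher or lower where the deposited interval of shFox2-2 lay wholly above or wholly below the intervals of both controls. It is said to have risen or fallen only where that held on both scales. Fold changes are differences in log2(FPKM + 1) from the mean of the controls, which understate the change of genes with low values. A gene is said to lie above or below the median gene where its centred change is above or below 0. The median of that change over all genes was 0.01. All 11 ES cell markers examined were among the genes used, with centred changes of -0.32 to 0.42. Their FPKM summed to 1555 in shFox2-2 and 1883 in shFox2-1, against 1532 in shLuc and 1697 in shGFP. The summed level of 17 fibroblast markers was 196 FPKM in shFox2-2, against 189 and 198 FPKM in the controls, with Lum at 0. Mesoderm markers summed to 12.02 FPKM in shFox2-2, against 11.58 and 12.93 FPKM in the controls, with Foxf1 at 0. Endoderm markers summed to 116 FPKM in shFox2-2, against 131 and 143 FPKM in the controls, with Ttr at 0. The sums for trophoblast were 186 FPKM in shFox2-2, against 186 and 198 FPKM in the controls, with Prl3d1 at 0. Neural and ectoderm markers summed to 61.5 FPKM in shFox2-2, against 69.3 and 75.8 FPKM in the controls. The sum for the 2-cell-like state was 33.7 FPKM in shFox2-2, against 38.02 and 41.1 FPKM in the controls, with 4 of 17 members at 0. Only 1 of the 17 had a mean of at least 1 FPKM, Eif1a. It had 30.9 FPKM in shFox2-2, against 36.5 and 39.4 FPKM in the controls, and so made up most of that sum. Single genes also weighed on other sums in shFox2-2: Fn1 had 109 FPKM of the fibroblast sum, and Sparc and Lamc1 had 43.8 and 32.3 FPKM of the endoderm sum. All these sums are as deposited and were not centred, and the deposited median gene of shFox2-2 was below that of each control. In shFox2-1 the sums were 174.8 FPKM for fibroblast, 20 FPKM for mesoderm and 172.9 FPKM for endoderm markers. They were 252.9 FPKM for trophoblast, 71.2 FPKM for neural and ectoderm and 62.3 FPKM for 2-cell-like markers. In such bulk samples fewer cells of a type and less RNA per cell cannot be told apart.

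The targeted gene was the most strongly reduced of the called genes. Rbfox2, entered under its older name Rbm9, lies on mm9 chromosome 15 between positions 76912769 and 77137358. It had 7.21 FPKM in shFox2-2 (interval 5.59 to 8.82) and 8.56 FPKM in shFox2-1 (7.14 to 9.98). The control values were 24.7 FPKM in shLuc (21.9 to 27.4) and 23.3 FPKM in shGFP (20.6 to 26.0). Both Rbfox2 hairpins lay far below both controls, and their own intervals overlapped each other. The shFox2-2 value was 30.04% of the control mean as deposited and 32.8% after centring. The fall was -1.61 as deposited and -1.49 after centring on the log2 scale. Rbfox2 carried a low-data status in shFox2-2 and shLuc. Its paralog Rbfox1 was at 0.068 FPKM in shFox2-2 and 0.156 FPKM in shFox2-1, against 0.114 and 0.254 FPKM in shLuc and shGFP, each with a lower bound of 0. Rbfox3 was not analysed here.

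Beyond the target, few genes moved and most moves were modest. On both scales 45 genes rose (0.356%) and 94 genes fell (0.743%), which together are 139 genes (1.1% of those tested). The centred change of the genes that rose had a median of 0.47, and that of the genes that fell a median of -0.49. Of all genes, 67.1% lay within 0.2 of no change after centring, with the lowest 5% under -0.31 and the highest 5% over 0.36. The direction of the wider set depended on the scale. As deposited, 45 genes were higher and 250 lower (0.356% and 1.98%), so that 84.7% of these calls were lower. After centring, 287 were higher and 94 lower (2.27% and 0.743%), so that 24.7% of the calls were lower. Centring divided shFox2-2 by 0.942, shLuc by 1.0 and shGFP by 1.06, so it could only raise shFox2-2 against both controls. By this arithmetic every gene called higher as deposited was also called higher after centring. Every gene called lower after centring was likewise called lower as deposited. The genes that rose are thus those called higher as deposited, and the genes that fell those called lower after centring. The closest cases on the deposited scale were Lancl1, just inside the higher calls, with Serpine2 just outside, and Ddx3y, just inside the lower calls, with Trim24 just outside.

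The same interval rule set the controls against each other as a background. After centring, shGFP lay outside shLuc for 88 genes (0.695%), and shFox2-2 lay outside shLuc for 640 genes (5.06%) and outside shGFP for 652 genes (5.15%). As deposited the counts were 151 for the controls against each other (1.19%), 543 for shFox2-2 against shLuc (4.29%) and 786 for shFox2-2 against shGFP (6.21%). In limma's fit on log2(FPKM + 1), 401 genes (3.17%) passed an adjusted p of 0.05, 61 higher (0.482%) and 340 lower (2.69%), and 2104 (16.6%) had an unadjusted p under 0.05. The error in that fit is the spread between the 2 controls smoothed over all genes, and the lone shFox2-2 value is assumed to vary like them. With 1 residual degree of freedom and an infinite prior weight on that smoothed spread, its p-values carry no error of the single gene. It called 92 of the 94 genes that fell and 6 of the 45 that rose on the deposited scale. After centring it called 335 genes (2.65%), 227 higher (1.79%) and 108 lower (0.854%), among them 63 of the 94 and 42 of the 45.

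**Figure D1:**
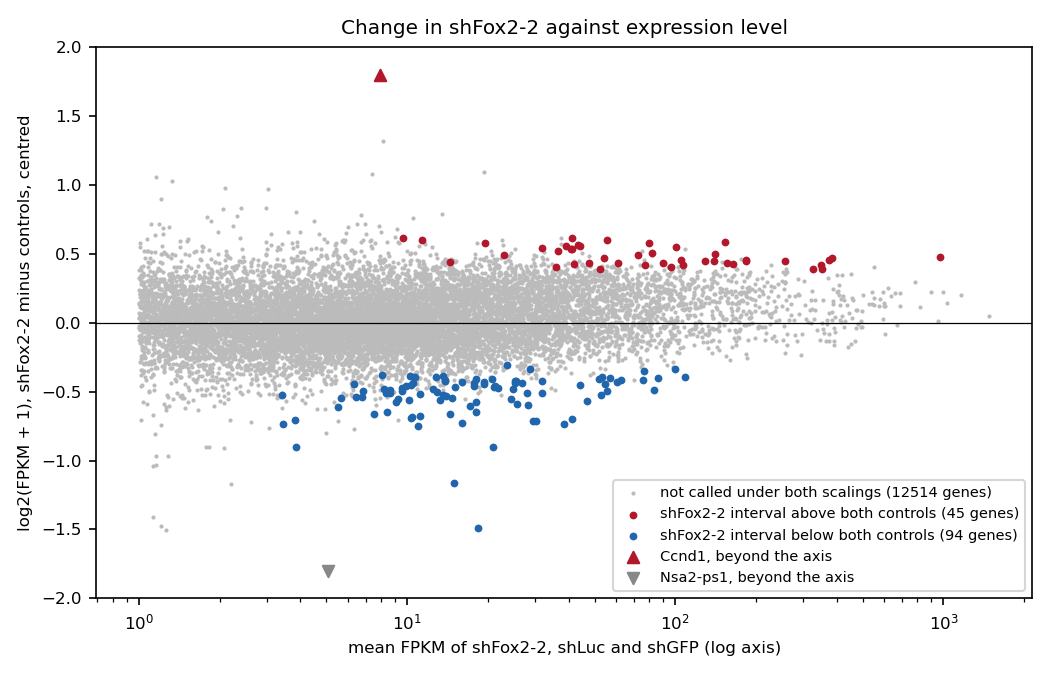
Centred change in shFox2-2, as the difference in log2(FPKM + 1) from the control mean, against the mean FPKM of shFox2-2, shLuc and shGFP on a log axis. Each point is 1 of 12653 genes, red for the 45 that rose and blue for the 94 that fell on both scales, and triangles mark Ccnd1 and Nsa2-ps1, which lie beyond the axis and are listed at 0 in some hairpins, so that no fold is given.

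Among genes of at least 5 FPKM, the largest falls after Rbfox2 were those of an unnamed entry, Itga3, Cenpf and Dtymk. The largest of these was that of an unnamed entry of 3 kb on chromosome 1. It had 7.18 FPKM in shFox2-2 and 17.6 FPKM in shFox2-1, against 22.6 FPKM in shLuc and 14.9 FPKM in shGFP. Itga3, the integrin alpha 3 subunit, which pairs with integrin beta 1 to bind laminin, had 11.9 FPKM in shFox2-2 and 15.0 FPKM in shFox2-1, against 24.4 and 26.2 FPKM in shLuc and shGFP. Both Rbfox2 hairpins lay below both controls for Itga3. Dtymk, the thymidylate kinase that makes dTDP for DNA synthesis, had 24.5 FPKM in shFox2-2 and 41.7 FPKM in shFox2-1, against 40.2 and 50.6 FPKM in the controls. Here shFox2-1 lay within the range of the controls, and shFox2-2 alone was below.

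Cenpf, a large protein of the outer kinetochore, had 6.77 FPKM in shFox2-2 and 17.1 FPKM in shFox2-1, against 13.2 FPKM in shLuc and 13.1 FPKM in shGFP. As deposited, the shFox2-2 interval lay below both controls and the shFox2-1 interval above both, which shFox2-1 did not keep after centring. Rif1, which binds telomeres and sets replication timing, showed the same deposited arrangement and kept it after centring. It had 19.5 FPKM in shFox2-2 and 48.6 FPKM in shFox2-1, against 36.3 and 35.0 FPKM in shLuc and shGFP. Tpr, the filament protein of the nuclear pore basket, had 18.9 FPKM in shFox2-2 and 38.1 FPKM in shFox2-1, against 34.8 and 34.4 FPKM in the controls. Ipo7, an importin that carries ribosomal proteins and histones into the nucleus, had 27.0 FPKM in shFox2-2 and 63.7 FPKM in shFox2-1, against 49.3 and 47.7 FPKM in the controls. For all 4 genes the shFox2-2 value was the lowest of the 4 hairpins, with centred changes of -0.70 to -0.75. The remaining large falls were those of Arhgap5, a GTPase-activating protein (centred change -0.69), Esf1, a nucleolar protein of rRNA processing (-0.69), and an entry that joins Ppp4r3b, a regulatory subunit of protein phosphatase 4, with a predicted copy (-0.67). Reads of that joined entry may be shared between its copies.

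**Figure D2:**
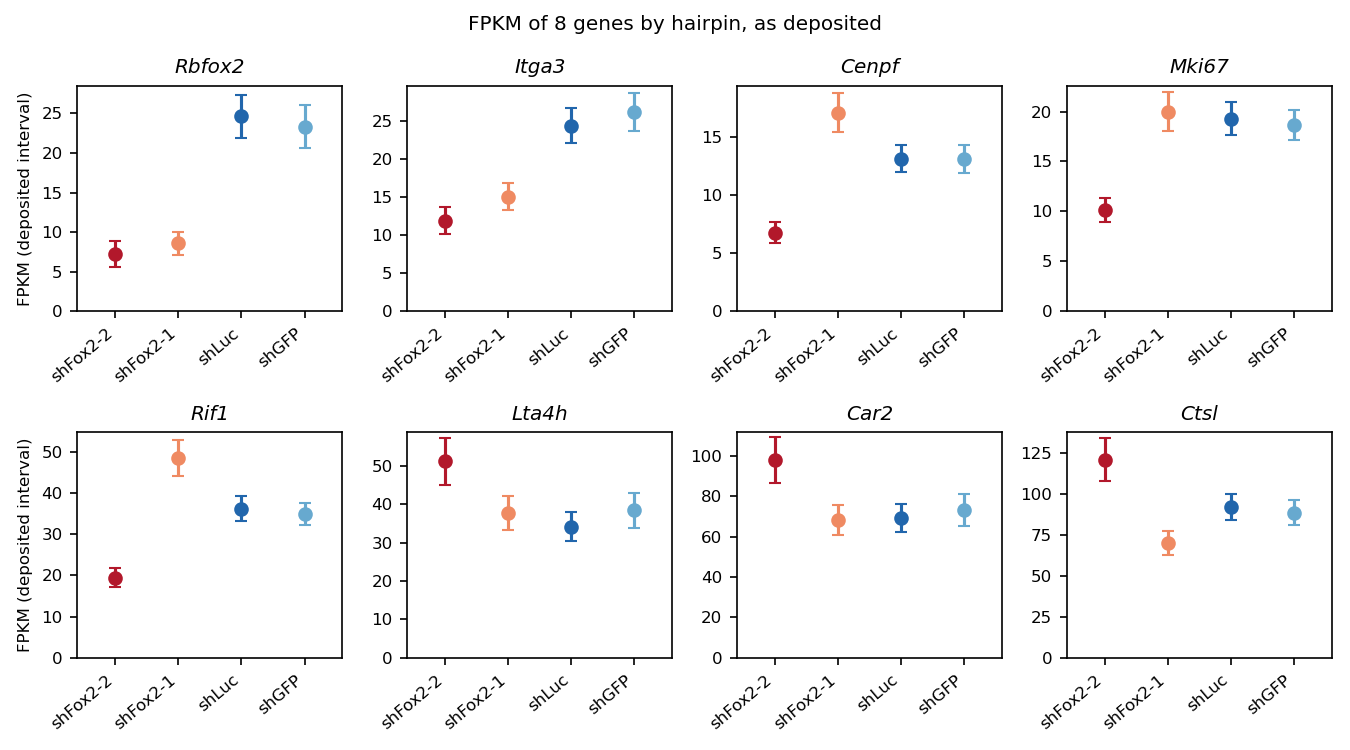
FPKM as deposited for 8 genes in shFox2-2, shFox2-1, shLuc and shGFP, with bars for the deposited interval and every axis starting at 0. In Rbfox2 and Itga3 both Rbfox2 hairpins lie below the controls, in Cenpf, Mki67 and Rif1 only shFox2-2 does, and Lta4h, Car2 and Ctsl are highest in shFox2-2.

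Genes of mitosis and the kinetochore gave the most falls of any list. All lists were chosen with earlier results of these data known, so such counts are not a test. Of 42 members, all of them among the genes used, 9 fell and none rose, against 0.743% lower and 0.356% higher over all genes. The 9 were Cenpf, Mki67, Smc2, Knl1, Cenpe, Bub1, Top2a, Kif11 and Smc4. Mki67, the proliferation antigen that coats mitotic chromosomes, had 10.1 FPKM in shFox2-2 and 20.0 FPKM in shFox2-1, against 19.3 and 18.7 FPKM in shLuc and shGFP. Smc2 and Smc4 form the ATPase core of condensin, which compacts chromosomes. Smc2 had 12.4 FPKM in shFox2-2 and 25.6 FPKM in shFox2-1, against 20.8 FPKM in each control. Smc4 had 43.8 FPKM in shFox2-2 and 61.8 FPKM in shFox2-1, against 65.9 and 61.2 FPKM in the controls. In each of these genes shFox2-2 was the lowest hairpin and did not overlap the controls.

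Top2a, the topoisomerase that untangles sister chromatids, had 47.9 FPKM in shFox2-2 and 77.2 FPKM in shFox2-1, against 66.7 and 73.7 FPKM in shLuc and shGFP. Bub1, a checkpoint kinase of the kinetochore, had 15.8 FPKM in shFox2-2 and 25.8 FPKM in shFox2-1, against 24.0 and 24.3 FPKM in the controls. Knl1, the kinetochore scaffold for Bub1, had 4.39 FPKM in shFox2-2 and 8.82 FPKM in shFox2-1, against 7.47 and 7.46 FPKM. The motor genes Cenpe and Kif11 had centred changes of -0.50 and -0.41. The 9 genes ranged from -0.75 to -0.40, with a median of -0.50, and the other 33 members from -0.47 to 0.28, with a median of -0.04. Among those 33, Ttk and Anln were lower as deposited but not after centring, while the cyclin gene Ccnb1 (centred change 0.19), the spindle factor Tpx2 (0.20), the activator of the anaphase-promoting complex Cdc20 (0.26) and the centromeric histone Cenpa (0.28) were above the median gene without a call. Of the 42 members, 31 lay below the median gene and 11 above it, against 6028 and 6625 of all genes, and of the 33 without a fall 22 lay below. The 9 genes had longer loci, with a median span of 45.5 kb, against 20.7 kb for the other 33. They also had a lower median level, at 18.01 FPKM, against 30.39 FPKM. The part of span or level in the falls was not tested.

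**Figure D3:**
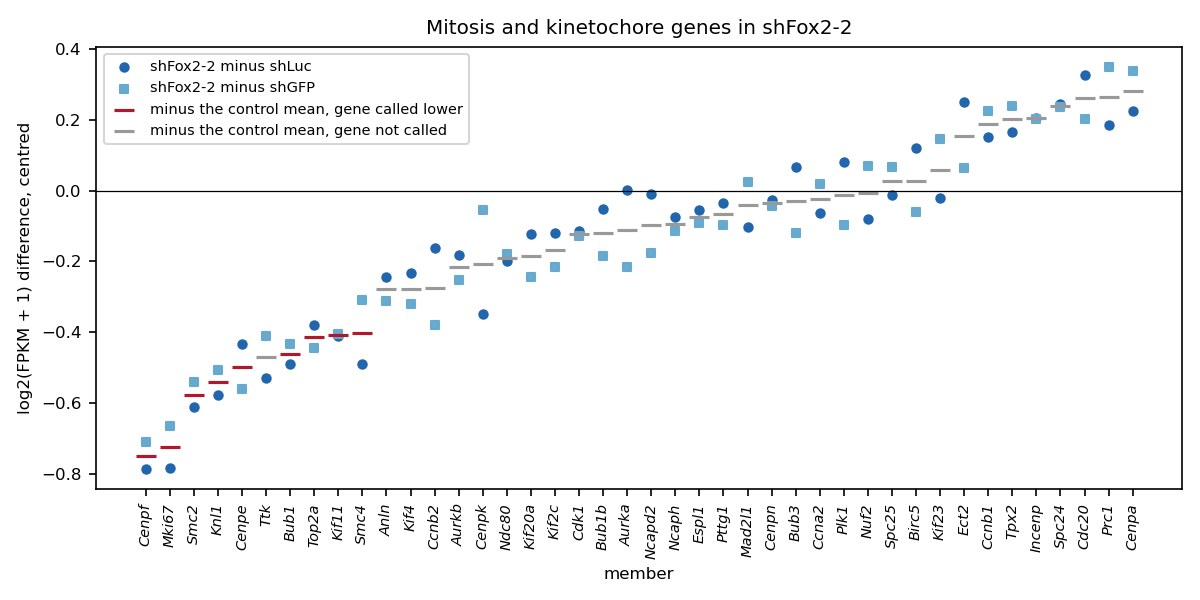
Centred difference in log2(FPKM + 1) for the 42 mitosis and kinetochore genes, ordered by the change against the control mean. Circles give shFox2-2 minus shLuc, squares shFox2-2 minus shGFP and dashes the difference from the control mean, red for the 9 called genes, which lie below 0 against each control.

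The promoters of Cenpf, Mki67 and Top2a, from the 9 genes that fell, are shown with the elements typical of mitotic genes. The windows are 300 bases around the annotated start, from RefSeq on GRCm38.p6, whose coordinates are not those of the mm9 expression table. Capitals mark the CCAAT box, written CCAAT or ATTGG, which NF-Y binds, and the core of the cell cycle genes homology region, written TTTGAA or TTCAAA, which the MuvB complexes bind. Cenpf lies at chr1:189688037-189688336 (minus strand), Mki67 at chr7:135716330-135716629 (minus strand) and Top2a at chr11:99024140-99024439 (minus strand).
Cenpf: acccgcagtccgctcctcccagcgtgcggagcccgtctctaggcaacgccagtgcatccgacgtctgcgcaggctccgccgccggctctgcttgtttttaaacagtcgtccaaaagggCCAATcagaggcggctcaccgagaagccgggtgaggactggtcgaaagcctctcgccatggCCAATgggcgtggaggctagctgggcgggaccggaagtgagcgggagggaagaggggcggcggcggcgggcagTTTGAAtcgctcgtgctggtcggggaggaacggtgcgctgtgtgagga
Mki67: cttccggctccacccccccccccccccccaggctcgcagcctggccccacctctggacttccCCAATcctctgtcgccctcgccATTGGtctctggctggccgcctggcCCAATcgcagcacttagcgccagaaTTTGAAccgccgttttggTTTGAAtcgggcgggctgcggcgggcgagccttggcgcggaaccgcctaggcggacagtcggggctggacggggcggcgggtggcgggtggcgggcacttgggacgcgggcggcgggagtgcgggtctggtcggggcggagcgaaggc
Top2a: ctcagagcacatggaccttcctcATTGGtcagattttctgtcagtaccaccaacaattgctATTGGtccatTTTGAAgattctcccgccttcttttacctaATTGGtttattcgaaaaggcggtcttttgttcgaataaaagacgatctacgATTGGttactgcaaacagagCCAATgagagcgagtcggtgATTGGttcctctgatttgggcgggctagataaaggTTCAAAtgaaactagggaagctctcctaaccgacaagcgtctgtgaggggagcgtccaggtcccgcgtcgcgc
Promoters were matched for 8 of the 9 genes. A CCAAT box was found in 7 of these 8, in 31 of 40 promoters of the whole list (77.5%) and in 12289 of 32851 promoters of all genes (37.4%). TTTGAA on either strand was found in 6 of the 8, in 29 of 40 of the list (72.5%) and in 5878 of all promoters (17.9%). The promoters shown hold both elements, while that of Knl1 had no CCAAT box and those of Cenpe and Bub1 had no TTTGAA. Both elements were frequent in the list as a whole. A match describes the letters only.

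Further lists held 1 or 2 falls each, to be read against 0.743% lower over all genes. Tpr and Ipo7 were the 2 members lower on both scales among 49 nuclear pore and transport genes, of which 24 lay above the median gene. Of 36 genes of chromatin remodelling and Polycomb, 2 fell and none rose, Rif1 and Atrx. Atrx, the helicase that places histone H3.3 in heterochromatin, had 23.0 FPKM in shFox2-2 and 49.6 FPKM in shFox2-1, against 37.6 and 34.6 FPKM in shLuc and shGFP. Of 45 DNA replication genes, 1 fell, Pola1, the catalytic subunit of the polymerase that primes replication. It had 5.90 FPKM in shFox2-2 and 11.1 FPKM in shFox2-1, against 9.36 and 9.87 FPKM in the controls. Of 38 translation initiation genes, 2 fell, Eif5b, which joins the ribosomal subunits (centred change -0.53), and Eif3a, a scaffold of eIF3 (-0.35). After centring, 7 genes of that list were higher, none of them on both scales, against 2.27% higher over all genes after centring. The unfolded protein response list had 1 fall among 22 genes, that of the endoplasmic reticulum chaperone Hsp90b1, with 84.3 FPKM in shFox2-2 and 110.2 FPKM in shFox2-1, against 119 and 123 FPKM in the controls.

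Calls among pluripotency genes lay in both directions. Of 37 core and naive members, 3 fell, Rex2, Klf2 and Tet1, and 1 rose, Sall4, against 0.743% and 0.356% of all genes. Rex2 had 13.1 FPKM in shFox2-2 and 33.8 FPKM in shFox2-1, against 19.8 and 20.2 FPKM in shLuc and shGFP. It is among the chromosome 4 entries described at the end, in which related copies may share reads. Klf2, a factor of the naive state, had 39.6 FPKM in shFox2-2 and 62.2 FPKM in shFox2-1, against 55.3 and 60.4 FPKM in shLuc and shGFP. Tet1, which oxidises 5-methylcytosine, had 10.4 FPKM in shFox2-2 and 23.4 FPKM in shFox2-1, against 15.3 and 15.8 FPKM in the controls, so that the Rbfox2 hairpins lay on opposite sides. Sall4, a zinc finger partner of the Pou5f1 protein, had 87.7 FPKM in shFox2-2 and 91.4 FPKM in shFox2-1, against 71.0 and 72.3 FPKM in the controls. The core factors Pou5f1 (centred change -0.08), Sox2 (-0.15) and Nanog (0.06, an entry shared with a predicted gene) had no call. Tet2 was lower as deposited only, with 3.45 FPKM in shFox2-2 and 11.5 FPKM in shFox2-1, against 5.05 and 5.21 FPKM in the controls. In the primed state and NODAL list, 2 of 18 members were above the median gene, against 6625 of 12653 genes in all. The median of that list was -0.15. No member was called on both scales, and Trh and Sox4 were lower as deposited only.

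Calls among genes of the actin cytoskeleton also lay in both directions. Of 37 members, 2 fell, Rock1 and Pls3, and 2 rose, among them Limk2, against 0.743% lower and 0.356% higher over all genes. Rock1, a kinase that activates myosin and LIM kinases, had 3.85 FPKM in shFox2-2 and 8.14 FPKM in shFox2-1, against 6.86 and 6.37 FPKM in shLuc and shGFP. Limk2, the LIM kinase that phosphorylates cofilin, had 27.3 FPKM in shFox2-2 and 31.3 FPKM in shFox2-1, against 21.7 and 20.1 FPKM in the controls. Pls3, an actin-bundling plastin, had a centred change of -0.56. For Limk2 and Pls3 shFox2-1 lay on the same side as shFox2-2, and for Rock1 its interval overlapped those of both controls.

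The hnRNP and SR families held 4 rises, to be read against 0.356% higher over all genes. Of 26 hnRNP genes, 3 rose and none fell, and of 11 SR genes 1 rose and none fell. Hnrnpab had 434 FPKM in shFox2-2 and 412 FPKM in shFox2-1, against 342 and 350.1 FPKM in shLuc and shGFP. Srsf7, a splicing factor that exports mRNA, had 122 FPKM in shFox2-2 and 136 FPKM in shFox2-1, against 100.2 and 97.9 FPKM in the controls. Pcbp2 and Hnrnpa2b1 each had a centred change of 0.39. These 4 genes were called by the intervals but had limma adjusted p values of 0.198 to 0.326 as deposited. Hnrnpu was lower as deposited only.

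Ptbp2, the neuronal relative of the polypyrimidine tract-binding protein and a known splicing target of RBFOX2, fell. It had 12.04 FPKM in shFox2-2 and 15.04 FPKM in shFox2-1, against 22.86 and 19.45 FPKM in shLuc and shGFP. Its shFox2-1 interval overlapped that of shGFP. Of 27 known targets of RBFOX2 splicing among the genes used, Ptbp2 and Ktn1, the kinesin-binding membrane protein kinectin, fell and none rose. Over all genes 0.743% fell and 0.356% rose. The median of the 27 was 0.11 after centring, against 0.01 for all genes. Of 20 genes of nonsense-mediated decay and the exon junction complex, only Pnn, a nuclear speckle protein, fell, against 0.743% of all genes. It had 14.6 FPKM in shFox2-2 and 26.3 FPKM in shFox2-1, against 21.8 and 21.9 FPKM in the controls. No member of the spliceosome core (48 genes), the SR kinases (7) or the microRNA machinery (15) was called on both scales.

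The genes that rose were more abundant and of mixed function. Their median level was 77.0 FPKM, against 16.6 FPKM for those that fell and 7.64 FPKM for all genes. Of the 45, 20 (44.4%) carried a low-data status in at least 1 of the 3 hairpins, against 17.0% of all genes and 5.32% of those that fell. With all 3 statuses required to be in order, 25 genes were called higher as deposited. The part of the low-data status in the rises was not tested. Lta4h, which makes leukotriene B4, had 51.3 FPKM in shFox2-2 and 37.7 FPKM in shFox2-1, against 34.2 and 38.5 FPKM in shLuc and shGFP. Car2, a cytosolic carbonic anhydrase, had 97.8 FPKM in shFox2-2 and 68.3 FPKM in shFox2-1, against 69.4 and 73.2 FPKM in the controls. For both genes the shFox2-1 interval overlapped those of the controls, and shFox2-2 alone was higher. Apaf1, the scaffold of the apoptosome, had 14.2 FPKM in shFox2-2 and 11.3 FPKM in shFox2-1, against 10.1 and 9.79 FPKM in the controls. Prdx6, a peroxidase that reduces lipid peroxides, had 188 FPKM in shFox2-2 and 156 FPKM in shFox2-1, against 131 and 142 FPKM in the controls. Lancl1, a glutathione-binding protein, had a centred change of 0.61. The limma adjusted p values of these 5 genes were 0.0351 to 0.0548 as deposited.

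Some of the other large rises stood above the controls in both Rbfox2 hairpins, Wdr35 and Sar1a on both scales. Wdr35, part of the intraflagellar transport machinery of cilia, had 24.0 FPKM in shFox2-2 and 27.6 FPKM in shFox2-1, against 16.63 and 17.96 FPKM in shLuc and shGFP. Sar1a, the GTPase that starts COPII vesicle formation, had 47.6 FPKM in shFox2-2 and 50.1 FPKM in shFox2-1, against 36.8 and 33.5 FPKM in the controls. Tsn, the nucleic acid-binding protein translin, and Calu, which encodes the endoplasmic reticulum protein calumenin, had centred changes of 0.60 and 0.56. For Tsn and Calu the shFox2-1 interval lay above both controls as deposited but not after centring. After centring their shFox2-2 interval also lay above that of shFox2-1. An entry joining Mgrn1 and Nudt16l1, whose genes cannot be told apart in it, had 0.56, with shFox2-1 overlapping the controls. Ctsl, the lysosomal protease cathepsin L, had 121 FPKM in shFox2-2 and 70.1 FPKM in shFox2-1, against 92.1 and 88.7 FPKM in the controls, so that the Rbfox2 hairpins lay on opposite sides of the controls. All 4 of its values carried the low-data status.

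The entry of Ccnd1, the cyclin that drives exit from G1, had 23.9 FPKM in shFox2-2 and was listed at 0 in shFox2-1, shLuc and shGFP. No fold can be given for it. An exact 0 in such a table can be a failed estimate. The median centred change of the other 44 genes that rose was 0.46.

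Stress and signalling lists held single calls, where 0.356% of all genes rose and 6625 of 12653 lay above the median gene. Of 26 p53 targets, 1 rose, Mdm2, the ubiquitin ligase that degrades p53, with 49.5 FPKM in shFox2-2 and 55.6 FPKM in shFox2-1, against 36.1 and 38.1 FPKM in shLuc and shGFP. Of these 26 targets, 18 were above the median gene. Asns, the asparagine synthetase, was the 1 member of 26 ATF4 pathway genes that rose, with 148 FPKM in shFox2-2 and 134 FPKM in shFox2-1, against 117 and 121 FPKM in the controls. Of 35 chaperones, 1 rose, Tcp1, a subunit of the TRiC chaperonin (centred change 0.45). Of 23 Notch pathway genes 1 rose, the effector Rbpj, and of 28 FGF and ERK pathway genes 1 rose, the p38 kinase Mapk14. Among 38 autophagy and lysosome genes Ctsl was the single rise, and 31 members were above the median gene, with a median of 0.15. Among 33 genes of sterol and fatty acid synthesis 23 were above the median gene, with a median of 0.08 and no call on both scales. Of 75 cytosolic ribosomal protein genes 1 rose, an entry that joins Rps3 with the snoRNA gene Snord15b. No gene of the mitochondrial ribosome (76), the respiratory chain (75), the proteasome (44) or the tRNA synthetases (38) was called on both scales.

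**Figure D4:**
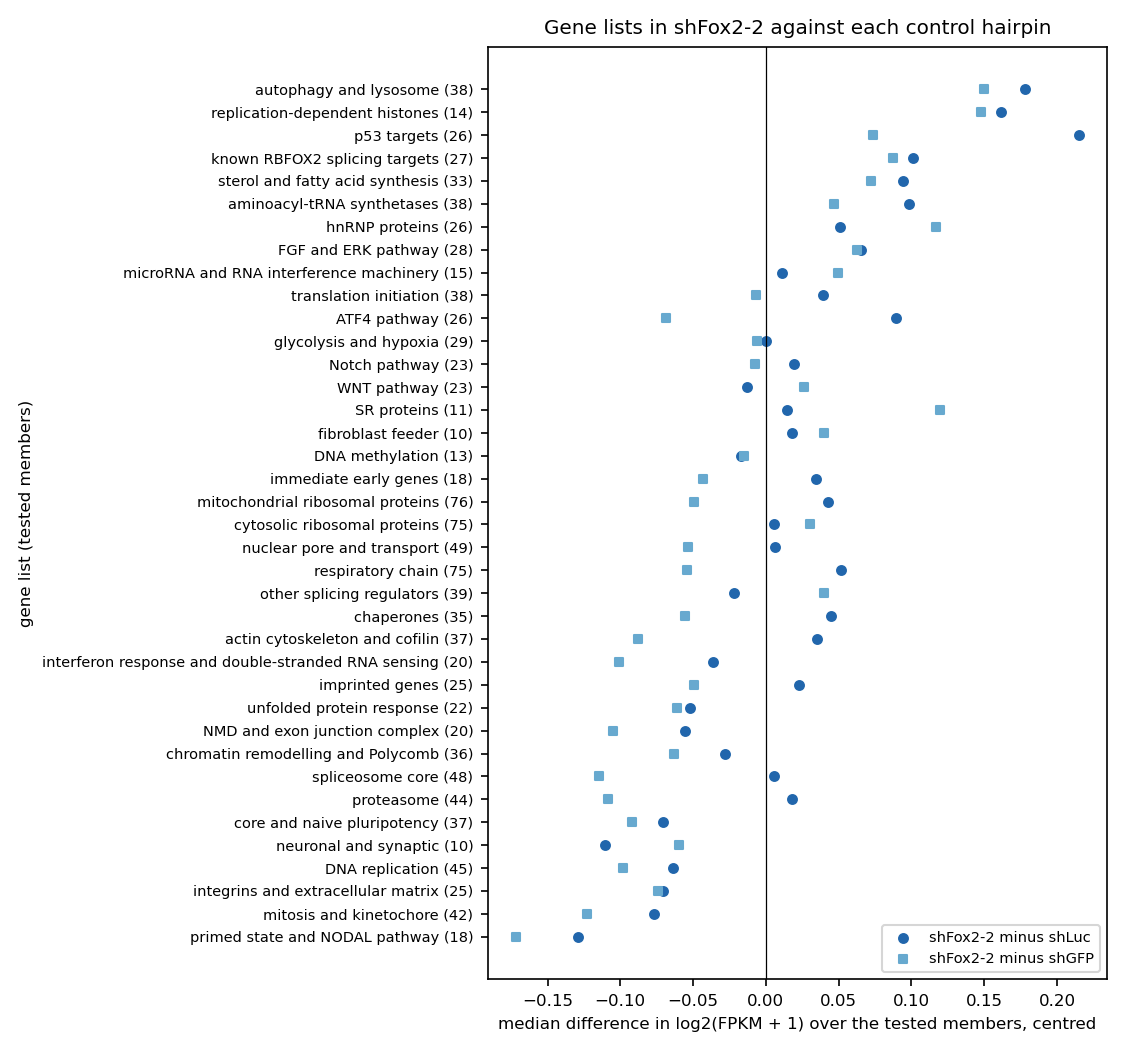
Median centred difference in log2(FPKM + 1) between shFox2-2 and each control for the 38 gene lists with at least 10 tested members, whose number stands in brackets. Circles give shFox2-2 minus shLuc and squares shFox2-2 minus shGFP, and the distance between them shows how far a list's median depends on the control.

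The values of shFox2-1 were set beside these calls, bearing in mind that both comparisons use the same controls. Of the 94 genes that fell in shFox2-2, 6 had the shFox2-1 interval below both controls as deposited, namely Rbfox2, Itga3, Xkr5, Gm8292, Pls3 and Ptms. A further 22 had it above both controls and 66 had neither. After centring, the counts were 7 below, 10 above and 77 neither. Over all 12653 genes, shFox2-1 lay below both controls for 274 (2.17%) and above for 682 (5.39%) as deposited, and for 432 (3.41%) and 389 (3.07%) after centring. As deposited, the shFox2-1 value, whatever its interval, was above both control values in 73 of the 94 (77.7%). It was so in 39 of the 45 genes that rose (86.7%), against 49.6% of all genes. These counts were not made after centring, and the deposited median gene of shFox2-1 was itself above that of each control. Of the 45 genes that rose, 23 had the shFox2-1 interval above both controls, 1 below, Ctsl, and 21 neither, and after centring 13 above, 2 below and 30 neither. As deposited, the shFox2-2 interval lay apart from that of shFox2-1 too in 87 of the 94 falls and in 7 of the 45 rises, and after centring in 78 and 25. On both scales it did so in 78 and 7 (0.616% and 0.0553% of all genes).

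**Figure D5:**
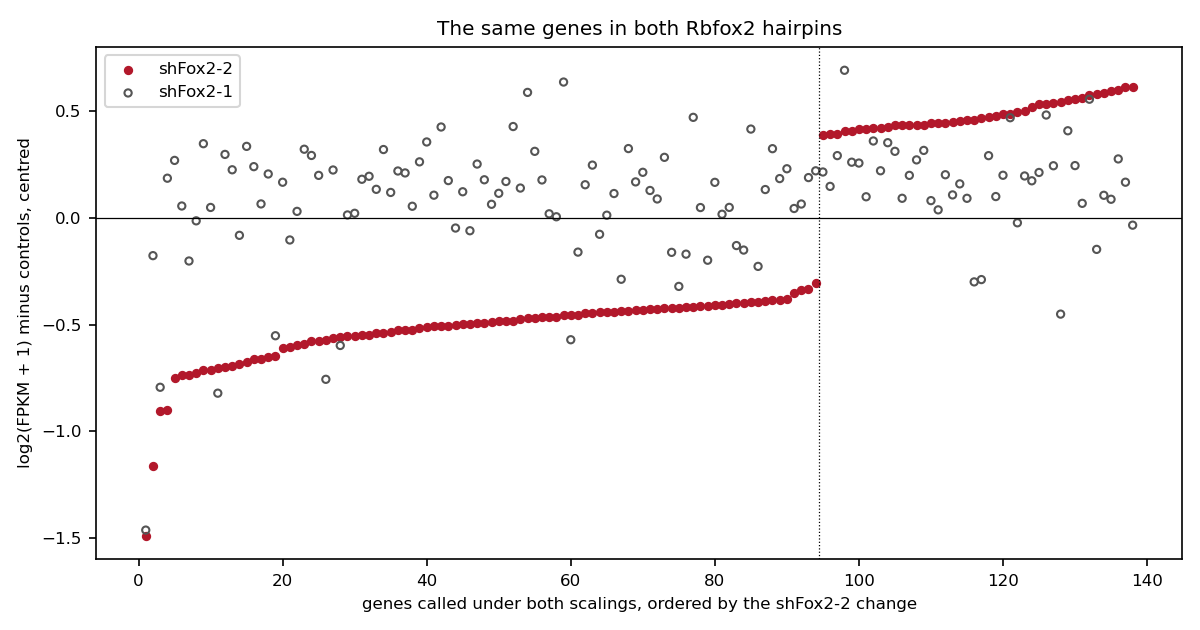
Centred change from the control mean, in log2(FPKM + 1), for 138 genes called on both scales (all but Ccnd1), ordered by the shFox2-2 change, with filled red points for shFox2-2 and open points for shFox2-1. Left of the dotted line are the 94 genes that fell in shFox2-2, most of whose shFox2-1 points lie above 0, and to the right those that rose, most of whose shFox2-1 points also lie above 0.

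Binding of RBFOX2 was compared as a readout that the calls did not use. The iCLIP experiment, which maps RNA crosslinked to a protein, used tagged human RBFOX2 induced in the same cell line and was deposited as 35639 clusters enriched over an untagged control. Of these, 31582 fell in 6504 of the genes used, so that 51.4% of all genes had a cluster. A cluster was present in 87 of the 94 genes that fell (92.6%) and in 38 of the 45 that rose (84.4%). Both groups also had longer loci and higher levels than all genes. The median locus span was 40.5 kb for the genes that fell, 27.8 kb for those that rose and 19.8 kb for all. Among genes of at least 27.5 kb and 4.35 FPKM, a cluster was present in 67 of 67 that fell and 21 of 23 that rose (91.3%), against 2657 of 3269 in all (81.3%). The median centred change was 0.02 for 6149 genes with no cluster, 0.00 for 2936 with 1 or 2, 0.01 for 2767 with 3 to 9 and 0.02 for 801 with 10 or more. Over these 4 groups, from no cluster to 10 or more, the share that fell was 0.114%, 0.715%, 1.81% and 2.0%, and the share that rose was 0.114%, 0.341%, 0.795% and 0.749%. The median span was 9.02, 20.3, 41.5 and 102.0 kb and the median level 5.57, 8.67, 10.6 and 12.1 FPKM over the same groups. The part of span and level in these shares was not tested beyond that range.

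The called genes with the most clusters lay in both directions. Rbpj, with 78 clusters, had 41.0 FPKM in shFox2-2 and 58.4 FPKM in shFox2-1, against 33.6 and 33.5 FPKM in shLuc and shGFP. Ptpn14, a tyrosine phosphatase of the Hippo pathway with 61 clusters, had 16.8 FPKM in shFox2-2 and 17.9 FPKM in shFox2-1, against 13.3 FPKM in each control. Both genes rose in shFox2-2 and were also above the controls in shFox2-1. Rbfox2 itself held 51 clusters. Etl4, with 61 clusters, and Ncor1, a corepressor of nuclear receptors with 32, were lower as deposited only, with centred changes of -0.25 and -0.27. Pola1, which also held 32 clusters, fell, as described with the replication genes. Chd9, a chromodomain helicase with 29 clusters, also fell, with 7.77 FPKM in shFox2-2 and 10.1 FPKM in shFox2-1, against 11.76 and 11.98 FPKM in shLuc and shGFP. Of the genes with the largest rises, Car2 and Ctsl held no cluster and Apaf1 held 9, and of those with the largest falls Rif1 held 15, Ipo7 held 11 and Tpr held 1.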

How the data were processed

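The authors deposited 1 FPKM value per gene and hairpin, pooled over 2 libraries, with a lower and an upper bound and a status, per the file headers. TopHat2 2.0, Cufflinks 2.1.1 and build mm9 are named in the submitters' processing notes. The scaling between hairpins is not stated there. The bounds set the precision, since depth is unknown: above 5 FPKM the median distance from value to bound was 17.6% in shFox2-2, 14.9% in shFox2-1, 13.8% in shLuc and 15.4% in shGFP. The iCLIP clusters were joined to genes by gene ID (95.4% matched), and their deposited scores were not used.

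Entries with a failed status (83) or a mean under 1 FPKM (14121) were left out, and 2152 with a low-data status were kept. A current symbol was found for 94.9%. Hairpins were centred by dividing values and bounds so that median log2 values met. limma 3.58.1 (R 4.3.3) was run with a mean-variance trend on log2(FPKM + 1), with Benjamini-Hochberg adjustment. A run on simulated data drew its error from the deposited intervals, so it cannot check whether shFox2-2 varies like the controls. Members and all 46 gene lists were chosen with earlier results of these data known. Named are the 12 largest rises and 12 largest falls of at least 5 FPKM, up to 4 called genes per list (the 2 most abundant where none), the 8 largest also apart from shFox2-1 and the 5 called genes with most clusters. Other genes were chosen after their values were seen. Promoters came from RefSeq. A few called genes are not reported here.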

Additional observations from a re-analysis of the deposited data

Results flagged for a closer look

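The 2 Rbfox2 hairpins moved some genes to opposite sides of the same controls. In 22 genes the shFox2-2 interval lay below both control intervals and the shFox2-1 interval above both as deposited. Among them were Cenpf, Rif1, Ipo7, Cops2, Hells, Atrx, Zfp979, Smc6, Zfp980, Ireb2, Rex2, Yme1l1, Abce1, Casp8ap2, an entry joining Gm13241 and Zfp992, Tet1, Setd2, Mga, Brca2, Aspm and Otud4. After centring, 10 of the 22 kept the shFox2-1 interval above both controls, among them Rif1, Atrx, Tet1 and Setd2. Brca2, a DNA repair gene, had 10.4 FPKM in shFox2-2 and 18.5 FPKM in shFox2-1, against 15.1 and 15.2 FPKM in shLuc and shGFP. In 1 gene, Ctsl, the arrangement was the reverse, as deposited and after centring. The difference between the hairpins has no replicate and was not tested.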

How the results depend on the processing

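No paired analysis was possible because the deposited table pools both libraries of each hairpin. As deposited, the 45 genes higher became 287 after centring, 593 where only the value had to lie outside both control intervals, 73 with no minimum FPKM, 25 with status in order throughout and 393 by limma's unadjusted p. The 250 genes lower became 94 after centring, 1543 by value and 1711 by limma's unadjusted p. After centring, the 287 higher became 1680 by value and 190 with status in order, and the 94 lower became 611 by value. Leaving out a control relaxes the rule by construction: without shLuc or shGFP the counts ran from 73 to 163 higher and 380 to 713 lower as deposited, and from 418 to 513 higher and 139 to 222 lower after centring. With no minimum FPKM limma called 0 of 19788 genes, with 1831 at an unadjusted p under 0.05, against 401 of 12653. Its other fits gave 335 after centring, 421 with a pseudocount of 0.1 and 401 with all 4 hairpins. Restricting to entries above 0 in all 3 hairpins, chosen after seeing the data, gave 44 higher and 250 lower. The Rbfox2 fall stayed between -1.49 and -1.72 throughout. Of the 109 other named genes, 31 lost and 5 gained a call on centring.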

Other observations

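Genes of the SMC complexes, which hold and fold chromosomes, were examined after their values had been seen. Of 14 tested, 6 fell on both scales, 4 were lower as deposited only and 4 had no call. Over all genes 0.743% fell on both scales and 1.98% were lower as deposited. Since the set was chosen after the values were seen, its counts are not a test of it. Smc3, a core subunit of cohesin, had 19.4 FPKM in shFox2-2 and 35.5 FPKM in shFox2-1, against 31.2 and 34.2 FPKM in shLuc and shGFP. Its partner Smc1a had 15.7 FPKM in shFox2-2 and 21.3 FPKM in shFox2-1, against 22.3 and 24.0 FPKM in the controls. Smc6, of the complex that acts in DNA repair, had 6.82 FPKM in shFox2-2 and 14.05 FPKM in shFox2-1, against 10.97 and 10.85 FPKM. The cohesin regulator Pds5b had a centred change of -0.48, and the condensin subunits Smc2 and Smc4 are described with the mitotic genes. Not all subunits moved: Stag1 (0.05), Ncapd2 (-0.10), Ncaph (-0.09) and Rad21 (-0.22) had no call.

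Of the 94 genes that fell, 10 lay on chromosome 4 (1.17% of its 854 genes, against 0.743% over all chromosomes), and the share was higher on chromosomes 1, 2, 19 and X, at 1.21% to 1.42%. Among the 10 were Rex2, Zfp979, Zfp980 and the joined Gm13241 and Zfp992 entry, also chosen after their values were seen. Zfp980 had 16.001 FPKM in shFox2-2 and 40.002 FPKM in shFox2-1, against 23.938 and 25.383 FPKM in shLuc and shGFP. Zfp979 had 20.2 FPKM in shFox2-2 and 45.9 FPKM in shFox2-1, against 30.9 and 32.8 FPKM in the controls. Related copies may share reads in these entries, and a second entry that now carries the symbol Rex2 had 13.7 FPKM in shFox2-2 and 35.6 FPKM in shFox2-1, against 20.4 and 20.5 FPKM, with no call on both scales.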
